A study of Mus musculus with 4 samples.

Results

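The transcripts described here are the adult globins and Alas2: the beta-globin symbols Beta-s, Hbb-b1 and Hbb-b2, the alpha-globin symbols Hba-a1 and Hba-a2, and Alas2. These 6 genes were taken by symbol from tables that together list 18492 genes. Hippocampal RNA of 6-month-old C57BL/6 mice was sequenced as 1 library per genotype for 4 genotypes: Ogg1-/- (Ogg1 KO), Mutyh-/- (Mutyh KO), a double knockout (DKO) whose genotype label reads Ogg-/- Mutyh-/-, and wild type (WT). Ogg1 encodes the glycosylase that removes 8-oxoguanine opposite cytosine, and Mutyh the one that removes adenine opposite 8-oxoguanine. The knockouts were labelled as loss of the gene with no cell type named. The sources used here do not give the number of animals per RNA, their sex or whether blood was flushed from the vessels.

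Haemoglobin carries oxygen in red blood cells and is built from paired alpha and beta chains, each holding a haem group. Alas2, the erythroid form of 5-aminolevulinate synthase, performs the first and rate-limiting step of haem synthesis in developing red cells, while Alas1 does so in other tissues. Globin messenger RNA is carried over into young circulating red cells (reticulocytes), so blood left in a dissected brain brings it along, and globin transcripts have also been described in neurons and glia. C57BL/6 mice carry the haplotype of the beta-globin locus with the adult genes beta-s and beta-t, whereas the beta-major (Hbb-b1) and beta-minor (Hbb-b2) genes define another haplotype.

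The globin copies are so alike that many reads match more than one of them, and the sequences below are shown for that reason. In the GENCODE annotation of GRCm38, Hba-a1 and Hba-a2 lie on chromosome 11 with 3 exons each, Hbb-bs (the present symbol of Beta-s) and Hbb-bt lie on chromosome 7 with 3 exons each, and Alas2 lies on the X chromosome. The coding sequences of Hba-a1 and Hba-a2, 429 bases each, differ by 1 base (C381T, counted from the A of the start codon, Hba-a1 base first). Those of Hbb-bs and Hbb-bt, 444 bases each, also differ by 1 base (C417T, Hbb-bs base first). The windows around these bases, at chr11:32284313-32284373 and chr11:32297130-32297190 (plus strand) and at chr7:103826665-103826722 and chr7:103812656-103812713 (minus strand), carry the differing base in capitals.
Hba-a1: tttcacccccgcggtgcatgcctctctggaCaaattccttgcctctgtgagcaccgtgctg
Hba-a2: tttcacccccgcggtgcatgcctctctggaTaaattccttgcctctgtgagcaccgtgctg
Hbb-bs: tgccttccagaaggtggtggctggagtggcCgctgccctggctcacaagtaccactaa
Hbb-bt: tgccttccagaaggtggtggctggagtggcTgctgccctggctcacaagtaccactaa

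Of the 505 windows of 50 bases in the Hba-a2 transcript, 66 (13.1%) occur in no transcript of another gene, and of the 579 in Hbb-bs, 198 (34.2%) do not; the share is 32.5% for Hba-a1 and 41.7% for Hbb-bt. Alas2, a single-copy gene, has 1713 such windows of 1988 (86.2%), the rest being shared with Apex2 and Mir3620. The sources used here do not give the read length. With windows of 100 bases the share was 25.5% for Hba-a2, 37.4% for Hbb-bs, 43.5% for Hba-a1 and 45.2% for Hbb-bt. These windows were read from GENCODE transcripts and not from the annotation behind the deposited counts.

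The deposited counts are of unique reads, and for Beta-s and Hba-a2 the length they covered hardly changed with their number. Beta-s had 803 reads in the library labelled Ogg1 KO, 1348 in Mutyh KO, 616 in the library labelled DKO and 408 in WT. These reads covered 44.29%, 45.07%, 44.29% and 43.97% of its 639 bases in that order of libraries, or 283, 288, 283 and 281 bases. Hbb-b1 was covered to between 33.23% and 33.71% in the knockout libraries and to 25.88% in WT, where it had the fewest reads. Hba-a1 was covered to 25.66% in each of the 3 knockout libraries and to 16.7% in WT, and Hba-a2 to between 24.53% and 25.38% in all 4. Alas2 coverage was 79.17%, 91.23% and 91.73% in the libraries labelled Ogg1 KO, Mutyh KO and DKO and 73.02% in WT. In each library Alas2 had far fewer reads than Beta-s, though more than Hbb-b1. How reads that match both copies were treated is not stated in the sources used here, so the copies are also given as sums. A sum does not bring back reads that were left out. The level of globin RPKM, of their ranks and of ratios between genes may therefore reflect how much of each gene unique reads reach.

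**Figure D1:**
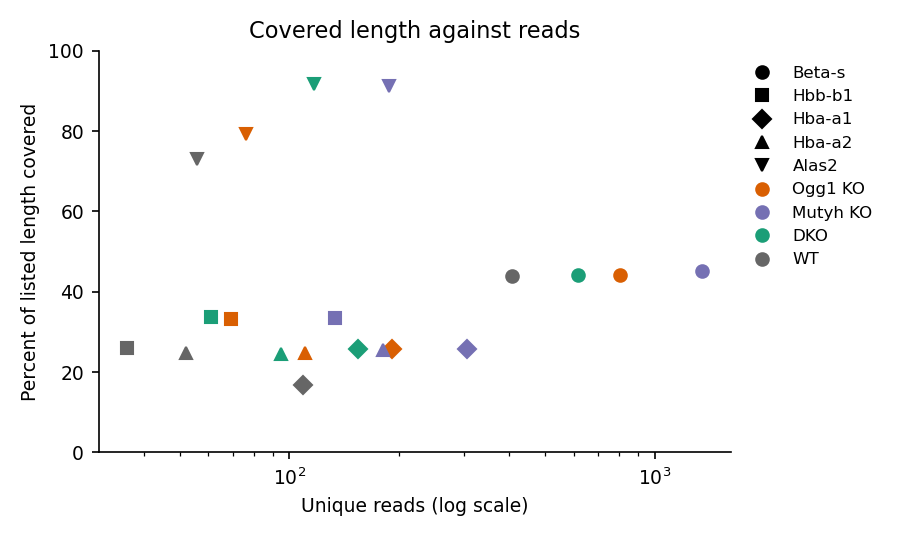
Percent of the listed gene length covered by reads (vertical axis) against unique reads on a log scale (horizontal axis), 1 point per gene and library; shape gives the gene and colour the library. Beta-s stays between 43.97% and 45.07% from 408 to 1348 reads, whereas Alas2 reaches 91.73% with 117 reads.

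Unique reads in genes, in megareads (M), totalled 17.02 M in the library labelled Ogg1 KO, 17.15 M in Mutyh KO, 18.20 M in the library labelled DKO and 18.12 M in WT. Ogg1 had 130 reads in the library labelled Ogg1 KO, 81 in Mutyh KO and 103 in the library labelled DKO, against 94 in WT, so its total runs against both labels, while its covered share was 47.2%, 81.5%, 46.4% and 86.7%. Mutyh had 35, 15, 20 and 39 reads in the same order. The Mutyh KO library held 10307 Xist reads, against 14 to 29 in the others, and 289 reads of the Y-linked gene Ddx3y, against 724 to 884, so it also differs in sex-linked transcripts. Hippocampal neuron markers were present in every library, with Camk2a, a kinase of excitatory synapses, at 1033 RPKM in the library labelled Ogg1 KO, 1038 in Mutyh KO, 1035 in the library labelled DKO and 1135 in WT. RPKM gives reads scaled to the library total and to the listed gene length in kilobases.

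Beta-globin transcripts were highest in the Mutyh KO library and lowest in WT. Beta-s, an adult beta globin of this strain, stood at 73.8 RPKM in the library labelled Ogg1 KO and at 123 in Mutyh KO. In the library labelled DKO it was at 53.0 RPKM and in WT at 35.2. It ranked 804th, 375th and 1211th by RPKM in the 3 knockout libraries and 2032nd in WT. Every library lay outside the counting intervals of its neighbours in this order.
Hbb-b1, the symbol of beta-major in the files, had 69 reads in the library labelled Ogg1 KO, 133 in Mutyh KO, 61 in the library labelled DKO and 36 in WT, or 6.47, 12.4, 5.35 and 3.17 RPKM. Which gene of the C57BL/6 haplotype these reads come from is not stated in the sources used here. The order of the libraries was that of Beta-s, with the libraries labelled Ogg1 KO and DKO close together.
Hbb-b2, beta-minor, was at 0 reads in the libraries labelled Ogg1 KO and DKO and at 1 read in Mutyh KO and WT. A count of 0 allows up to 3 reads, or 0.176 and 0.165 reads per M in the libraries labelled Ogg1 KO and DKO. Hbb-b2 was the 1 member of 6 that did not reach a mean of 1 RPKM, and no fold is given for it.

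Beta-s held 11.6 reads for each Hbb-b1 read in the library labelled Ogg1 KO (95% interval 9.09 to 15.1), 10.1 in Mutyh KO (8.48 to 12.2), 10.1 in the library labelled DKO (7.75 to 13.4) and 11.3 in WT (8.05 to 16.4). All 4 intervals overlap, so the division of reads among the beta symbols differed by less than counting error. All intervals given here are exact, cover counting error only, and say nothing of the spread between animals.

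The summed beta globins had 872 reads in the library labelled Ogg1 KO, 1482 in Mutyh KO, 677 in the library labelled DKO and 445 in WT. These were 51.2, 86.4, 37.2 and 24.6 reads per M. Relative to WT the sum was 2.09-fold higher in the library labelled Ogg1 KO (1.86 to 2.34), 3.52-fold in Mutyh KO (3.16 to 3.92) and 1.51-fold in the library labelled DKO (1.34 to 1.71). In descending order the libraries were Mutyh KO, Ogg1 KO, DKO and WT, and no 2 neighbours overlapped: Mutyh KO was at 1.69-fold the library labelled Ogg1 KO (1.55 to 1.84), and the library labelled DKO at 0.726-fold the library labelled Ogg1 KO (0.656 to 0.804) and 0.430-fold Mutyh KO (0.392 to 0.472). With 1 library per genotype there is no replicate check, no p-value is given, and each fold compares libraries and not genotypes. In bulk tissue, more red cells and more globin RNA per cell cannot be told apart.

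Alpha-globin transcripts followed the same order. Hba-a1 had 191 reads in the library labelled Ogg1 KO, 307 in Mutyh KO, 154 in the library labelled DKO and 109 in WT, or 19.7, 31.5, 14.9 and 10.6 RPKM. Hba-a2 had 110, 180, 95 and 52 reads in these libraries, or 11.01, 17.9, 8.89 and 4.89 RPKM. Both symbols were highest in Mutyh KO and lowest in WT.
The number of Hba-a1 reads for each Hba-a2 read was 1.74 in the library labelled Ogg1 KO (1.37 to 2.22), 1.71 in Mutyh KO (1.41 to 2.06), 1.62 in the library labelled DKO (1.25 to 2.12) and 2.10 in WT (1.49 to 2.98), with overlapping intervals. The summed alpha globins had 301 reads in the library labelled Ogg1 KO, 487 in Mutyh KO, 249 in the library labelled DKO and 161 in WT. That is 1.99-fold (1.64 to 2.42), 3.196-fold (2.67 to 3.84) and 1.54-fold (1.26 to 1.89) over WT. The sum in the library labelled DKO was 0.774-fold that labelled Ogg1 KO (0.651 to 0.918) and 0.482-fold Mutyh KO (0.412 to 0.562), and Mutyh KO was 1.61-fold the library labelled Ogg1 KO (1.39 to 1.86). Taken singly, Hba-a2 and Hbb-b1 did not separate the libraries labelled DKO and Ogg1 KO, with ratios of 0.808 (0.607 to 1.07) and 0.827 (0.576 to 1.18).

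**Figure D2:**
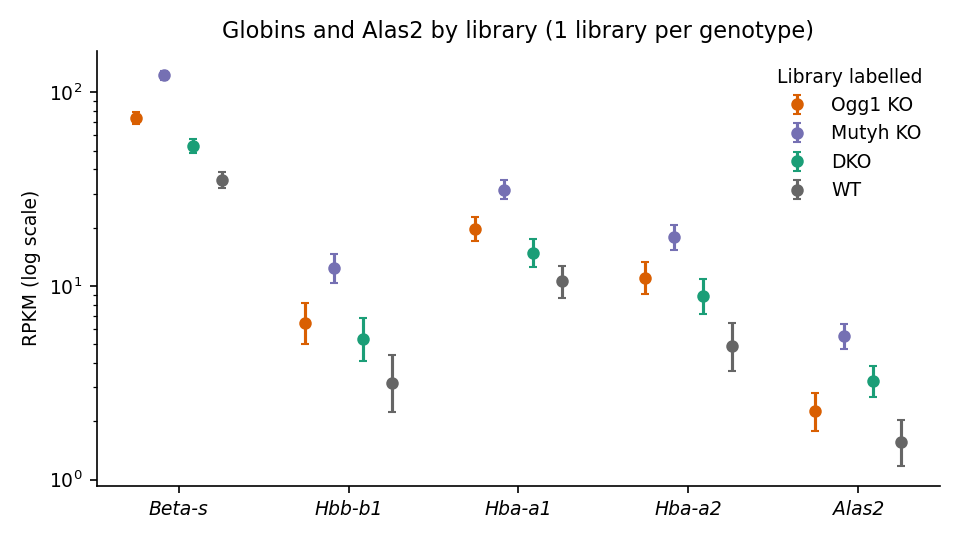
RPKM on a log scale (vertical axis) of the 5 members with a mean of at least 1 RPKM, 1 point per library with the 95% counting interval as bar. Each gene is highest in Mutyh KO and lowest in WT, with Beta-s between 35.2 and 123 RPKM and Alas2 between 1.56 and 5.50 RPKM.

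Alas2 had 76 reads in the library labelled Ogg1 KO, 187 in Mutyh KO, 117 in the library labelled DKO and 56 in WT, or 2.25, 5.50, 3.24 and 1.56 RPKM. It shared its highest and lowest library with the globins, but the order between them was turned round: the library labelled DKO was above that labelled Ogg1 KO, at 1.44-fold (1.07 to 1.95). Relative to WT, Alas2 was 1.44-fold higher in the library labelled Ogg1 KO (1.01 to 2.08), an interval that barely excludes 1, 3.53-fold in Mutyh KO (2.60 to 4.85) and 2.08-fold in the library labelled DKO (1.4999 to 2.91). Mutyh KO was 2.44-fold the library labelled Ogg1 KO (1.86 to 3.23), and the library labelled DKO was 0.589-fold Mutyh KO (0.464 to 0.746). Alas2 lies on the X chromosome, and the Mutyh KO library, highest for Alas2 and the globins, is the one with 10307 Xist reads. The part of sex in the levels of Alas2 and of the globins was not tested.

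**Figure D3:**
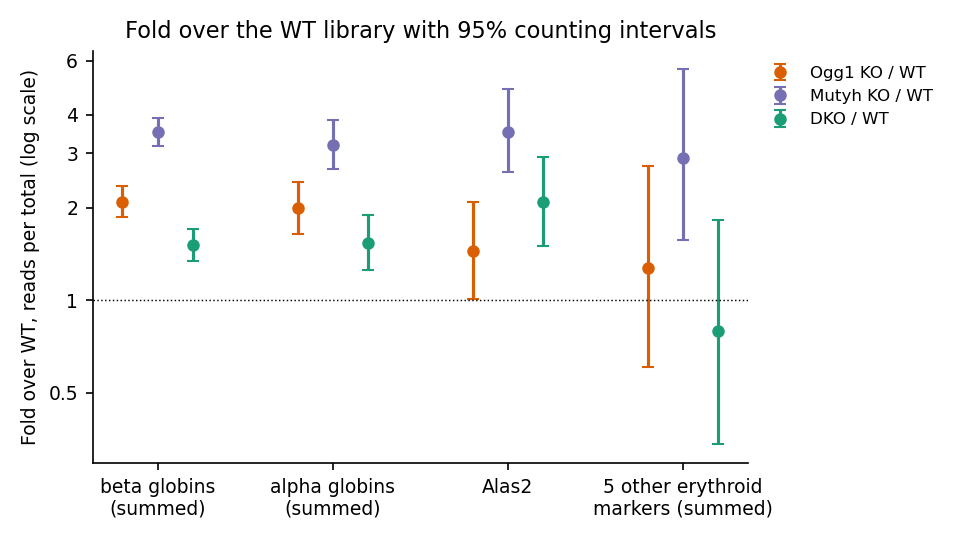
Fold of reads per library total over the WT library on a log scale (vertical axis) for the beta sum, the alpha sum, Alas2 and 5 other erythroid markers summed; bars are 95% counting intervals and the dotted line is 1. Mutyh KO lies between 3.196-fold and 3.53-fold in the first 3 columns and at 2.89-fold in the last, where Slc4a1 holds 33 of 41 reads, while the library labelled Ogg1 KO is at 2.09-fold and 1.99-fold for the globins and at 1.28-fold, with an interval that includes 1, for the other erythroid markers.

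Ratios within a library do not depend on its depth. Alpha-globin reads per beta-globin read were 0.345 in the library labelled Ogg1 KO (0.302 to 0.394), 0.329 in Mutyh KO (0.296 to 0.364), 0.368 in the library labelled DKO (0.317 to 0.426) and 0.362 in WT (0.3002 to 0.434). The alpha and beta sums thus kept one proportion within counting error across a 3.43-fold range of total globin reads between Mutyh KO and WT. Alas2 reads per 1000 globin reads were 64.8 in the library labelled Ogg1 KO (50.7 to 81.8), 94.97 in Mutyh KO (81.3 to 110), 126 in the library labelled DKO (103 to 153) and 92.4 in WT (69.0 to 122). This proportion was not constant: in the library labelled DKO it was 1.95 times that in the library labelled Ogg1 KO (1.43 to 2.67) and 1.33 times that in Mutyh KO (1.03 to 1.71). Against WT no interval excluded 1, at 0.701 for the library labelled Ogg1 KO (0.483 to 1.02), 1.03 for Mutyh KO (0.747 to 1.43) and 1.37 for the library labelled DKO (0.969 to 1.95).

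**Figure D4:**
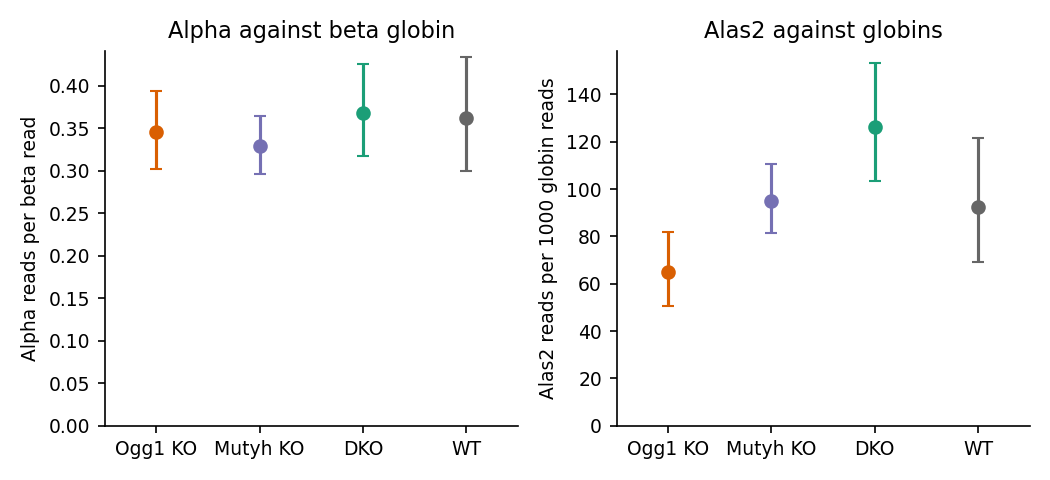
Left, alpha-globin reads per beta-globin read; right, Alas2 reads per 1000 globin reads, each by library with 95% counting intervals. The alpha to beta ratio stays between 0.329 and 0.368, whereas the Alas2 ratio runs from 64.8 in the library labelled Ogg1 KO to 126 in the library labelled DKO.

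How often the members passed a 2-fold difference was counted on the scale of log2(RPKM + 1), over 13186 genes with a mean of at least 1 RPKM, among them 5 of the 6 members. In the library labelled Ogg1 KO, 2 of these (Beta-s and Hba-a2) were at least 2-fold above WT, where 0.554% of all genes were (0.766% past 2-fold in either direction). In Mutyh KO all 5 were, against 0.743% of genes (0.834% in either direction), and their median log2 ratio of 1.68 stood beside 0.01 for all genes. In the library labelled DKO 0 of 5 were, against 0.546% of genes (0.592% in either direction), though all 5 were above WT with a median log2 ratio of 0.61 beside -0.00 for all genes. The library labelled DKO was at least 2-fold below Mutyh KO for 3 members (Beta-s, Hbb-b1 and Hba-a1), against 0.212% of genes (0.303% in either direction), and past 2-fold of the library labelled Ogg1 KO, in either direction, for 0, against 0.387% of genes (0.0834% lower). Mutyh KO was past 2-fold of the library labelled Ogg1 KO for 0 members, against 0.417% of genes (0.319% higher), with Alas2 at a log2 ratio of 0.9994, just under the limit. The 3 comparisons with WT share 1 WT library, so a low WT library would raise all 3.

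If the single knockouts' ratios to WT multiplied, the beta sum in the library labelled DKO would stand at 7.34-fold WT and the alpha sum at 6.36-fold. The measured 1.51-fold and 1.54-fold fell short by -2.28 (counting SE 0.11) and -2.05 (SE 0.18) on the log2 scale. For Alas2 the product was 5.10-fold, the measured value 2.08-fold and the departure -1.29 (SE 0.31). These values carry no replicate error.

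Promoters of the globins and Alas2 are shown as background, and their part in the values was not tested. RefSeq windows of GRCm38.p6, 250 bases before each annotated start, were found for Beta-s (as Hbb-bs), Hba-a1, Hba-a2 and Alas2, 4 of the 6 members. They were searched on both strands for GATAA (read by GATA factors such as GATA1), CACCC (read by KLF1 and related factors), CCAAT and TATAA. The last 120 bases of the Hba-a2 window, chr11:32296372-32296491 (plus strand), and of the Hbb-bs window, chr7:103827929-103828048 (minus strand), are printed with the matches in capitals; no matches share letters in them.
Hba-a2: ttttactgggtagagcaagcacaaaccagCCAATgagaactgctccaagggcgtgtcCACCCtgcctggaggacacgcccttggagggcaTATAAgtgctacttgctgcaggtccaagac
Hbb-bs: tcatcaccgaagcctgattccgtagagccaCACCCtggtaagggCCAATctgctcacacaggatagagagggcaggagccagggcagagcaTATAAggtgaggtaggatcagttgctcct

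The Hba-a1 window was identical to that of Hba-a2 over the 247 bases that align, with the annotated starts 3 bases apart. TATAA began at position -30 in Hba-a2 and -29 in Hbb-bs, counted from the base before the start, and CCAAT at -91 and -76. GATAA matched further upstream, at -185 in Hba-a2 and -209 in Hbb-bs. The Alas2 window held GATAA at -86, CACCC 3 times and no CCAAT. Among 32851 promoter windows of this length, 22.6% held GATAA, 52.0% CACCC, 33.8% CCAAT and 22.8% TATAA. A match describes the letters and not a bound site.

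Defining red cell genes other than Alas2 were read at the edge of detection. The 5 markers Slc4a1 (the anion exchanger of the red cell membrane), Rhag (of the Rhesus complex), Ahsp (the chaperone of free alpha chains) and the transcription factors Klf1 and Gata1 summed to 18 reads in the library labelled Ogg1 KO, 41 in Mutyh KO, 12 in the library labelled DKO and 15 in WT. Only in Mutyh KO did the interval of the sum over WT exclude 1, at 2.89-fold (1.57 to 5.62), beside 1.28-fold in the library labelled Ogg1 KO (0.608 to 2.72) and 0.796-fold in the library labelled DKO (0.340 to 1.82). Most of the Mutyh KO sum was Slc4a1, named after its values had been seen, with 6 reads in the library labelled Ogg1 KO, 33 in Mutyh KO, 3 in the library labelled DKO and 8 in WT (4.36-fold in Mutyh KO over WT, 1.97 to 10.9). Without Slc4a1 the other 4 markers summed to 12, 8 and 9 reads in the libraries labelled Ogg1 KO, Mutyh KO and DKO and 7 in WT, and the Mutyh KO sum was 1.21-fold WT (0.383 to 3.91), so the call rests on that gene. Ahsp was at 0 in the library labelled Ogg1 KO, Gata1 in the library labelled DKO, and both in WT. Per 1000 globin reads the 5 markers gave 15.3 reads in the library labelled Ogg1 KO (9.06 to 24.4), 20.8 in Mutyh KO (14.9 to 28.4), 13.0 in the library labelled DKO (6.67 to 22.7) and 24.8 in WT (13.8 to 41.2), with overlapping intervals.

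Apart from Alas2, the haem synthesis list stayed near WT as a sum. All 11 genes of that list were compared. On the scale of log2(RPKM + 1) Alas2 in Mutyh KO was the 1 value past 2-fold of WT. In that library 0.834% of all genes were. By reads per library total Alas2 also passed 2-fold in the library labelled DKO, at 2.08-fold (1.4999 to 2.91). Fech, ferrochelatase, which inserts iron into the ring, had the most reads. It stood at 21.02 RPKM in the library labelled Ogg1 KO, 23.3 in Mutyh KO, 22.4 in the library labelled DKO and 20.1 in WT. That is the library order of Alas2 over a far smaller range, at 1.05-fold WT (0.961 to 1.14), 1.16-fold (1.07 to 1.27) and 1.12-fold (1.03 to 1.22). Alas1, the housekeeping form, stood at 23.3, 23.2, 20.7 and 22.1 RPKM. Without Alas2 the list's summed reads were 1.02-fold WT in the library labelled Ogg1 KO (0.981 to 1.06), 1.03-fold in Mutyh KO (0.986 to 1.07) and 0.968-fold in the library labelled DKO (0.930 to 1.01). The median log2 ratio of the 11 genes was 0.06, 0.05 and -0.05, beside 0.02, 0.01 and -0.00 for all genes.

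The 3 other globins that could be compared did not share the pattern of the members. Cygb, cytoglobin of fibroblast-like cells and some neurons, was the most abundant of that list at 27.4 RPKM in the library labelled Ogg1 KO, 27.3 in Mutyh KO, 24.1 in the library labelled DKO and 29.8 in WT. Mb, myoglobin of heart and skeletal muscle, had 6, 64, 45 and 47 reads, or 0.136-fold WT in the library labelled Ogg1 KO (0.0475 to 0.318). It was the only one of the 3 compared genes past 2-fold, and in that library 0.766% of all genes were. Hbb-y, the embryonic beta-like globin, had 0 reads in the libraries labelled Ogg1 KO and Mutyh KO and 1 read in the library labelled DKO and in WT. Hbb-y, Hbq1a and Hbq1b did not reach 1 RPKM, and the remaining 3 symbols of that list were in no table.

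Genes of the red cell membrane and late erythroid stages that the brain also expresses had medians near WT. Their median log2 ratios were 0.02, 0.01 and -0.08 for the libraries labelled Ogg1 KO, Mutyh KO and DKO. Above WT were 8, 8 and 5 of the 15 compared, below WT were 7, 7 and 10, and 0 were past 2-fold. Single genes departed from these medians. Epb4.1, named after its values were seen, was at 1.39-fold WT (1.23 to 1.57), 1.60-fold (1.42 to 1.79) and 1.05-fold (0.922 to 1.19), in the order of the globins. Of all genes 0.766%, 0.834% and 0.592% were past 2-fold of WT, so a 0 says little about lists of this size. Sptb, beta-spectrin, had the most reads, at 34.7 RPKM in the library labelled Ogg1 KO, 38.8 in Mutyh KO, 34.2 in the library labelled DKO and 40.7 in WT. Of the erythroid transcription factor list 5 of the 9 listed were compared and 0 were past 2-fold, beside the same shares of all genes. Bcl11a, which silences fetal globin genes in human red cells and is abundant in forebrain neurons, lay between 42.3 and 44.8 RPKM.
Of 17 haem breakdown and iron genes 14 were compared and 0 were past 2-fold, beside the same shares of all genes. The medians were -0.02, 0.03 and -0.02. The 3 that did not reach a mean of 1 RPKM, named after their values were seen, were Hp (haptoglobin, which binds free haemoglobin), Hpx (hemopexin, which binds free haem) and Cd163 (the macrophage receptor for haptoglobin with haemoglobin). Hp had 3, 23 and 32 reads in the libraries labelled Ogg1 KO, Mutyh KO and DKO and 39 in WT, or 0.0819-fold WT in the first of these (0.0162 to 0.258). Hpx had 9, 31, 23 and 29 reads, or 0.330-fold WT in the library labelled Ogg1 KO (0.138 to 0.717). Cd163 had 42, 71, 44 and 37 reads, or 2.03-fold WT in Mutyh KO (1.34 to 3.10), so it was highest in the library with the most globin reads. Fth1, the heavy chain of the iron store ferritin, was at 2273, 2341 and 2183 RPKM in the libraries labelled Ogg1 KO, Mutyh KO and DKO and 2371 in WT. Slc40a1, the iron exporter ferroportin, named after its values were seen, had 161, 201 and 221 reads in those libraries and 124 in WT, or 1.38-fold (1.09 to 1.76), 1.71-fold (1.36 to 2.16) and 1.77-fold (1.42 to 2.23) over WT, an order that differs from that of the globins.

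Markers of other blood cells were sparse. The 8 platelet markers summed to 94 reads in the library labelled Ogg1 KO, 111 in Mutyh KO, 107 in the library labelled DKO and 132 in WT, which is 0.758-fold (0.575 to 0.995), 0.889-fold (0.684 to 1.15) and 0.807-fold (0.619 to 1.05) of WT. Much of the platelet difference lay in Gp1ba, named after its values were seen, with 17, 31, 34 and 50 reads. It was at 0.362-fold WT in the library labelled Ogg1 KO (0.196 to 0.638). No other platelet marker had an interval that excluded 1 there, so the lower platelet sum leans on that gene. The 7 granulocyte markers listed summed to 14, 26, 18 and 23 reads and the 7 lymphocyte markers to 38, 32, 44 and 27. Every granulocyte and lymphocyte interval over WT included 1, and none of these genes reached a mean of 1 RPKM. The granulocyte intervals ended at 1.31, 2.19 and 1.51 in the libraries labelled Ogg1 KO, Mutyh KO and DKO, beside globin intervals of 1.87 to 2.28, 3.13 to 3.77 and 1.37 to 1.69, so the DKO intervals overlap. The lymphocyte intervals ended at 2.55, 2.17 and 2.72, and at this depth only the Mutyh KO globin interval lies outside them.

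Summed vessel, meningeal and choroid plexus markers were above WT in the knockout libraries, as the globins were, though not gene by gene. The 12 endothelial markers were at 1.11-fold WT in the library labelled Ogg1 KO (1.07 to 1.15), 1.18-fold in Mutyh KO (1.14 to 1.22) and 1.05-fold in the library labelled DKO (1.01 to 1.09) over a far smaller range than the globins. Of the 12, 3, 2 and 3 were below WT in these libraries. Without Slco1c1, a thyroid hormone carrier of brain vessels, the sums were 1.04-fold (0.995 to 1.08), 1.09-fold (1.05 to 1.14) and 1.02-fold (0.985 to 1.06). Flt1, a receptor for vascular growth factors and their most read gene, was at 14.3, 14.8 and 13.0 RPKM in these libraries and 15.1 in WT.
The 10 meningeal markers summed to 523, 719 and 501 reads per M in the libraries labelled Ogg1 KO, Mutyh KO and DKO and 242 in WT, or 2.16-fold (2.08 to 2.24), 2.97-fold (2.87 to 3.08) and 2.07-fold (1.998 to 2.15) over WT. Igf2, insulin-like growth factor 2, had the most reads and stood at 3.22-fold, 4.65-fold and 2.43-fold. Without it the sums were 1.43-fold (1.36 to 1.503), 1.81-fold (1.72 to 1.90) and 1.82-fold (1.74 to 1.91), which no longer follow the order of the globins. The list's median log2 ratios were 0.43, 0.64 and 0.92, with 2, 2 and 5 of 10 genes past 2-fold and 2 genes, Dcn and Lum, at 0.926-fold and 0.914-fold WT in the library labelled Ogg1 KO. Slc13a4, a sulfate transporter, was at 3.72-fold, 5.23-fold and 3.87-fold, and Aldh1a2 (retinoic acid synthesis), Ogn (a small proteoglycan) and Slc22a6 (an organic anion transporter) passed 2-fold in the library labelled DKO, at 3.40-fold, 2.19-fold and 2.75-fold.

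The 12 choroid plexus markers, of the epithelium that secretes cerebrospinal fluid, summed to 3412 reads per M in the library labelled Ogg1 KO, 3487 in Mutyh KO and 1694 in the library labelled DKO, against 293 in WT. All 12 were past 2-fold in each knockout library. The sums were 11.7-fold WT (11.3 to 12.0), 11.9-fold (11.6 to 12.3) and 5.79-fold (5.62 to 5.96). Without Ttr, which held most of these reads, they were 6.17-fold (5.87 to 6.50), 8.28-fold (7.88 to 8.71) and 3.37-fold (3.19 to 3.55). Ttr, the thyroid hormone carrier, was at 14.4-fold, 13.7-fold and 6.99-fold, and the potassium channel Kcnj13 at 13.2-fold, 16.2-fold and 7.74-fold.
The remaining 10 ranged from 3.89-fold (Kl) to 39.7-fold (Tmem72) in the library labelled Ogg1 KO, from 4.86-fold (Kl) to 17.7-fold (Tmem72) in Mutyh KO and from 2.32-fold (Kl) to 18.3-fold (Tmem72) in the library labelled DKO. No listed endothelial, meningeal or choroid plexus marker was at 0 in any library. The part of vessels, meninges or choroid plexus in the globin values was not tested. Summed hippocampal neuron markers lay slightly under WT, at 0.941-fold, 0.917-fold and 0.938-fold in the libraries labelled Ogg1 KO, Mutyh KO and DKO. Camk2a held most of these reads, and 3, 2 and 4 of the 9 genes were above WT.

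**Figure D5:**
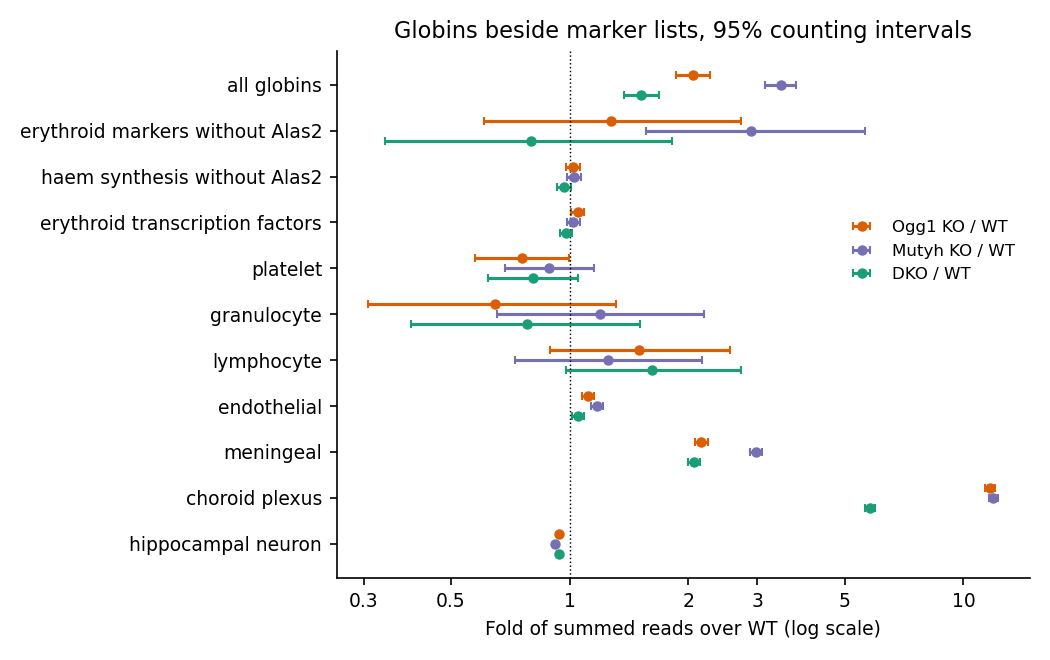
Fold of summed reads over the WT library on a log scale (horizontal axis) for all globins and 10 marker lists, with 95% counting intervals; the dotted line is 1. Globins are at 2.06-fold, 3.43-fold and 1.52-fold in the libraries labelled Ogg1 KO, Mutyh KO and DKO; the choroid plexus sum is above 5-fold in each, the meningeal sum is above 2-fold with Igf2 and between 1.43-fold and 1.82-fold without it, and haem synthesis without Alas2 lies between 0.968-fold and 1.03-fold.

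The genes whose pattern was most like that of the summed beta globins were found by the root mean square difference between mean-centred log2(RPKM + 1) profiles over the 4 libraries. Among the members this difference was 0.01 for Beta-s, 0.09 for Hbb-b1, 0.10 for Hba-a2, 0.11 for Hba-a1 and 0.34 for Alas2. Outside the members the nearest gene was Lbp, the lipopolysaccharide-binding protein, at 0.10. It had 440 reads in the library labelled Ogg1 KO, 654 in Mutyh KO, 329 in the library labelled DKO and 179 in WT, so it lay as near as the alpha globins and nearer than Alas2.
The next were Wdr86 (0.14), Rdh5, a retinol dehydrogenase (0.15), Krt18, an epithelial keratin (0.17), Cd59a, an inhibitor of complement (0.17), Col8a2, a collagen chain (0.18), Col9a3, another collagen chain (0.20), Abca4, a retinoid transporter (0.20), Slc16a8, a lactate transporter (0.22), and Otx2, a homeodomain transcription factor (0.22). All 10 were highest in Mutyh KO, followed by the libraries labelled Ogg1 KO and DKO, and lowest in WT. Their Mutyh KO values ran from 3.36-fold (Cd59a) to 8.50-fold (Abca4) over WT, against 3.52-fold for the beta sum. None of the 10 is in the lists described above. Those lists are short, with 12 genes for the choroid plexus, so this does not set the 10 apart from the listed tissues. The summed choroid plexus markers had the same order of libraries. A likeness over 4 libraries rests on few values.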

How the data were processed

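There is 1 table per hippocampal library, with 1 line per gene. Per the file headers, each gene has the authors' count of its unique reads, and the library total stands in that header. The authors' RPKM values equalled reads divided by listed length and that total. The deposited coverage is a percent, taken from its header to mean how much of the listed length had reads. The gene length was deposited by the authors beside these values. The build was mm9, per the submitters' processing notes, so no GRCm38 coordinate was joined to the counts. The sources used here do not give the aligner, counter, annotation, read length or strand.

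Genes in no row were taken as 0 reads. Of 18492 genes, 13186 had a mean of at least 1 RPKM and were compared by log2 ratios after adding 1 RPKM, which makes differences of low genes look smaller. Folds are ratios of reads per library total with exact conditional 95% intervals, shares have exact (Clopper-Pearson) intervals, and ratios within a library were compared by conditional odds ratios. A count of 0 allows up to 3 reads. Intervals cover counting error only, since 1 library per genotype gives no spread between animals. They treat each read as independent. Reads without molecular identifiers are not independent molecules, so the intervals may be too narrow even for counting error. Folds were tested on simulated data. Beside the members, the text names each list's compared gene with most reads, every compared list gene past 2-fold of WT in any knockout library, and the 10 genes nearest to the beta sum; others are said to be chosen after their values were seen. The members, lists and rule were chosen with earlier results of these data known. Sequences came from GENCODE M21 and RefSeq. Python 3.11.15, NumPy 2.4.6, pandas 2.3.3, SciPy 1.17.1 and matplotlib 3.10.9 were used. Alternatives were the scaling, the total without ribosomal RNA, single globin symbols, summed RPKM, the pseudocount and the filter. Some erythroid markers are not reported here and enter no sum.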

Additional observations from a re-analysis of the deposited data

Results flagged for a closer look

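The same loss ran in opposite directions on the 2 backgrounds for the globins. Loss of Mutyh went with a 3.52-fold higher beta sum where Ogg1 was intact (Mutyh KO over WT) and with 0.726-fold where Ogg1 was also lost (DKO over the library labelled Ogg1 KO). Loss of Ogg1 went with 2.09-fold where Mutyh was intact and with 0.430-fold where it was also lost. The departures from the product of the single knockouts were -2.28 on the log2 scale for the beta sum and -2.05 for the alpha sum, and for the single symbols -2.28 (Beta-s), -2.24 (Hbb-b1), -1.98 (Hba-a1) and -2.18 (Hba-a2). For Hbb-b1 and Hba-a2 the loss of Mutyh without Ogg1 had an interval that included 1, so only the loss of Ogg1 ran opposite ways. Alas2 (-1.29) likewise ran opposite ways only for the loss of Ogg1, at 1.44-fold with Mutyh intact and 0.589-fold without it, whereas the loss of Mutyh went with higher values on both backgrounds, 3.53-fold and 1.44-fold. These differences were not tested, since each genotype has 1 library. The Ogg1 read totals run against the labels Ogg1 KO and DKO. The covered share of Ogg1 was lower in these 2 libraries, at 47.2% and 46.4%, than in Mutyh KO (81.5%) and WT (86.7%).

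The same opposite directions, also untested, were seen for 1460 of 13166 compared genes with reads in all libraries (11.1%). Among the other 35 genes named by rule they were seen for 24: the 12 choroid plexus markers, 2 of 5 named meningeal markers, and the 10 genes most like the beta sum, whose choice by profile fixes this pattern, so that they support nothing. The choroid plexus and meningeal markers were named for passing 2-fold of WT in a knockout library, which favours this pattern. Their counts are thus not comparable with the 11.1%, and the calls also depend on read depth. The other 3 meningeal markers had departures of -0.35 (Aldh1a2), -0.20 (Ogn) and 0.12 (Slc22a6) and ran opposite ways for neither loss. The departures of the 24 on the log2 scale were -3.74 (Abca4), -1.97 (Cd59a), -4.73 (Cldn2), -3.33 (Clic6), -2.76 (Col8a2), -2.32 (Col9a3), -4.52 (F5), -4.59 (Folr1), -2.62 (Igf2), -5.07 (Kcne2), -4.78 (Kcnj13), -3.03 (Kl), -3.32 (Krt18), -2.46 (Lbp), -3.22 (Otx2), -4.81 (Prlr), -3.22 (Rdh5), -2.33 (Slc13a4), -2.97 (Slc16a8), -4.81 (Slc4a5), -3.64 (Sostdc1), -5.26 (Tmem72), -4.82 (Ttr) and -3.20 (Wdr86). For Cd59a, Col8a2, Slc13a4 and Wdr86 this held only for the loss of Ogg1, and for Tmem72 only for the loss of Mutyh.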

How the results depend on the processing

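The folds of the beta sum, the alpha sum and Alas2, and their departures from the product of the single knockouts, kept their direction and stayed inside their main intervals under scaling by the median of ratios, under totals without ribosomal RNA and, for the globins, with Beta-s or Hba-a2 alone. The alpha to beta ratios did so with summed RPKM. Adding 0.1 RPKM in place of 1 gave 182 genes past 2-fold for the library labelled Ogg1 KO over WT (101 with 1 RPKM), 210 for Mutyh KO over WT (110), 158 for DKO over WT (78), 98 for DKO over Ogg1 KO (51), 101 for DKO over Mutyh KO (40) and 101 for Mutyh KO over Ogg1 KO (55). Without a filter DKO over Ogg1 KO gave 85. Members past 2-fold with 0.1 RPKM numbered 3 for Ogg1 KO over WT, 1 for DKO over WT, 4 for DKO over Mutyh KO and 1 for Mutyh KO over Ogg1 KO, the last also 1 under the median of ratios, where Alas2 sits at the limit. Choroid plexus medians with 0.1 RPKM were 3.40, 3.64 and 2.46 for the libraries labelled Ogg1 KO, Mutyh KO and DKO, and that of the other globins in Mutyh KO was -0.13, since a smaller pseudocount shrinks weakly expressed genes less. No paired analysis was possible because each genotype has 1 library, and leaving out a replicate was likewise not possible. Leaving 1 marker out of a summed list, chosen after seeing the data, ended the Mutyh KO call of the erythroid markers (1.21-fold without Slc4a1) and, without Slco1c1, the endothelial calls in the libraries labelled Ogg1 KO and DKO (1.04-fold and 1.02-fold). Depth limits Hbb-b2, the other erythroid markers and the blood cell markers, which rest on few reads.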
